A study of Mus musculus with 4 samples.

Results

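The 17 Gy and 0.85 Gy samples of a mouse radioiodine series were compared gene by gene. These are the highest and lowest of the given doses that were above 0. Both samples were total RNA from tissue labelled as normal thyroid of Balb/c mice, fresh-frozen, with a time of 24 h and absorbed doses of 17 and 0.85 Gy from 131I, and each was hybridised to 1 Illumina mouse BeadChip array. Arrays at 0 Gy and 8.5 Gy, of the same strain, tissue and time, complete the series and are given beside them. The labels do not say how many mice stood behind an array, their age or their sex. A gene was compared if it had a named probe with a detection p under 0.01, termed detected, on at least 1 of the 2 arrays, and the difference is the normalised log2 level at 17 Gy minus that at 0.85 Gy. This chose 7868 of the 16593 genes with a named probe, through 10416 of 23978 named probes. With 1 array at each dose there were no replicates, so no difference below has an error, a p-value or a replicate check, and only its size can be given.

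Radioiodine enters the thyroid through the sodium iodide symporter of follicular cells, the cells that store thyroglobulin and make thyroid hormone, and its beta particles deliver dose within the gland over days. The mouse thyroid is minute and lies against trachea, muscle, salivary glands and brown fat, the heat-producing fat tissue that depends on noradrenaline, cAMP and the uncoupling protein Ucp1. Absorbed dose is known to act on cells through DNA damage, to which the transcription factor p53 responds, and a dissected gland also reads out the hormonal and feeding state of the animal.

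The label was set against markers first. Of 19 thyrocyte genes with a probe, 12 were detected on neither array, among them Tg, which encodes thyroglobulin, Slc5a5, the iodide symporter, and Pax8, a thyroid transcription factor. The Tg probe had a raw intensity of 84 at 0 Gy, 87 at 0.85 Gy, 92 at 8.5 Gy and 86 at 17 Gy, below the median probe of each array (92, 108, 105 and 95 in that order). Of the 7 thyrocyte genes that were measured none was 2-fold apart, and their median difference was 0.01. Tshr, the thyrotropin receptor, stood at a log2 level of 6.20, 5.60, 5.88 and 5.67 with rising dose, a difference of 0.07 between the 2 arrays (0.72 by its second probe). All 16 adipocyte genes with a probe and 15 of 20 brown fat genes were detected on at least 1 of the 2 arrays, while Dio2, the deiodinase of brown fat, Prdm16 and Zic1, its transcription factors, and Lhx8 and Esrrg were on neither. Ucp1 was at 13.28, 13.16, 13.85 and 13.41 and Adipoq, the adipokine adiponectin, at 13.41, 13.28, 13.26 and 13.47. The values below therefore describe the tissue that was hybridised, in which most thyrocyte markers were not detected and most fat genes were. In such bulk RNA, fewer cells of a type and less RNA per cell cannot be told apart.

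At 17 Gy, 271 genes were at least 2-fold higher than at 0.85 Gy (3.44% of the 7868 compared) and 106 were at least 2-fold lower (1.35%), together 4.79%. Higher genes thus made up 71.9% of those 2-fold apart, and 85.3% where the arrays were scaled to their 75th percentile in place of quantile normalisation. The middle of the distribution was close to 0, with a median of 0.01, quartiles of -0.28 and 0.32, and 5th and 95th percentiles of -0.71 and 0.86. Levels on both arrays went together across genes (Pearson's r = 0.968 over the 7868 genes, which are not independent replicates). Of the genes 2-fold apart, 90 of the higher were detected at 17 Gy only and 36 of the lower at 0.85 Gy only, and for these the fold is written as a lower bound. Counts of genes 2-fold apart use the measured level of both arrays; "with bounds" they use the lower bound for such genes, which leaves 214 higher and 79 lower. The direction of all 271 and all 106 was the same in the authors' normalised values, which come from the same arrays and are compressed at low levels. Most of these genes were dim. Below a mean log2 level of 7, 146 of 3620 genes were 2-fold higher and 70 lower, against 18 and 7 of 1194 genes at a level of 10 or more. Where a gene had further detected probes, 68 of 76 probes of the higher genes and 29 of 36 of the lower had the same direction, and 28 and 8 of them were also 2-fold apart.

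**Figure D1:**
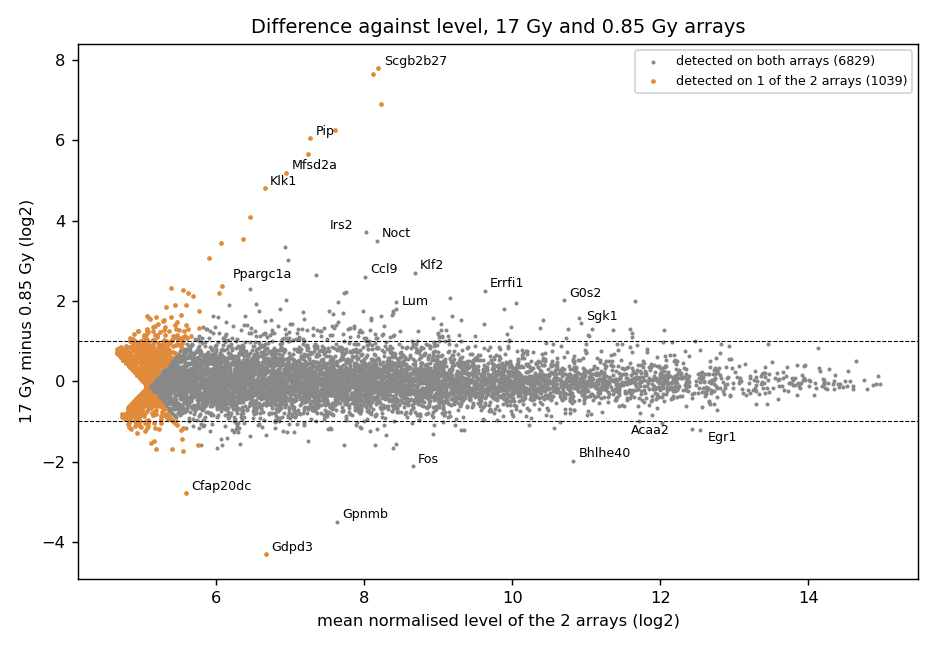
Each point is 1 of the 7868 genes, with the mean normalised log2 level of the 2 arrays on the x axis and the log2 difference, 17 Gy minus 0.85 Gy, on the y axis; orange points were detected on 1 of the 2 arrays, and dashed lines mark 2-fold. The largest differences in the upward direction belong to salivary secretory genes, Klk1 and Mfsd2a, all not well above background at 0.85 Gy, and those in the downward direction to Gdpd3 and Gpnmb.

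The levels on the remaining arrays did not order these genes by dose. In 215 of the 271 higher genes (79.3%) and 83 of the 106 lower genes (78.3%), the unirradiated 0 Gy array lay nearer to the 17 Gy level than to the 0.85 Gy level, where 61.8% of all 7868 genes did. The 8.5 Gy array lay nearer to 17 Gy in 38.0% of the higher and 48.1% of the lower genes, against 44.5% of all. The 2-fold genes were picked by the difference between the 17 and 0.85 Gy arrays, so the share over all genes is not a matched reference. For many genes described below, the 0 Gy level was further from the 0.85 Gy level than from the 17 Gy level.

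The largest differences were in proteins that salivary and related glands secrete into saliva and tears. Of 26 genes on a salivary gland list with a probe, 10 were measured. At 17 Gy 8 of these were at least 2-fold higher (80.0%, beside 3.44% of all genes), with a median of 5.84 (5.04 with bounds, and 0.13 over all 26). The 8 were each not well above background at 0.85 Gy, and the other 16 genes of the list were detected on neither array. The summed raw intensity of the 10 was 4152 at 0 Gy, 4208 at 0.85 Gy, 1889 at 8.5 Gy and 19243 at 17 Gy. Of these sums the major urinary protein gene Mup2, which was not 2-fold apart, gave 2544, 2771, 531 and 3624 in that order. It thus made up most of the sums at 0 and 0.85 Gy. Tissue kallikreins are serine proteases, many of them made in the submandibular gland, that lie in a cluster on chromosome 7. Of 17 with a probe, 5 were measured and 3 of these were at least 2-fold higher (60.0%). Their median was 3.07 (2.30 with bounds, and 0.09 over all 17). Of the 5, 4 were detected at 17 Gy only, and the other 12 genes were detected on neither array. Some kallikreins and secretoglobins are close copies of one another, and whether a probe reads more than 1 copy was not tested. Promoters of 2 kallikreins and 2 secretoglobins are given for how alike they are, not for what a probe reads. They are from RefSeq (GRCm38.p6, 250 bases before to 50 after the start), from the C57BL/6J reference and not from Balb/c. Capitals mark bases aligned to a different base in the other of the pair, over the aligned columns, for Klk1b5 (chr7:44216224-44216523, plus strand) with Klk1b27 (chr7:44052040-44052339, plus strand) and for Scgb2b26 (chr7:33944936-33945235, minus strand) with Scgb2b27 (chr7:34013893-34014192, minus strand).
Klk1b5: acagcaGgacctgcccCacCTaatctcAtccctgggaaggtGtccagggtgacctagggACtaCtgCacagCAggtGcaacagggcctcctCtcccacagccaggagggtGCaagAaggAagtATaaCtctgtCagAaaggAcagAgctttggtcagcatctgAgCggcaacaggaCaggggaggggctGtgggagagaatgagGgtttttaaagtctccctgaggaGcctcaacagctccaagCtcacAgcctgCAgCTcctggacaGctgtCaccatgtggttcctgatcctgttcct
Klk1b27: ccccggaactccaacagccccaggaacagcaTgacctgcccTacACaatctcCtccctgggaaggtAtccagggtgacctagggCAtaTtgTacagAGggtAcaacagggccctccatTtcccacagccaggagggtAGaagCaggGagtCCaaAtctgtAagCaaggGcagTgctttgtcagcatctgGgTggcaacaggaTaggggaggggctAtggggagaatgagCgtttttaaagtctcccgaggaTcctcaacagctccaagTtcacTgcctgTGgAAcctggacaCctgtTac
Scgb2b26: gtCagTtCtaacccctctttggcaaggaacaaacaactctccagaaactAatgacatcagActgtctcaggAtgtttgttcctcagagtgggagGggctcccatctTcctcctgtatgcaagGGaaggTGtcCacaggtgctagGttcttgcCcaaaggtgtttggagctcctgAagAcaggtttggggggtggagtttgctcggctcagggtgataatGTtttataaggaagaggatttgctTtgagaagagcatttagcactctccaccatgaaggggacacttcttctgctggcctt
Scgb2b27: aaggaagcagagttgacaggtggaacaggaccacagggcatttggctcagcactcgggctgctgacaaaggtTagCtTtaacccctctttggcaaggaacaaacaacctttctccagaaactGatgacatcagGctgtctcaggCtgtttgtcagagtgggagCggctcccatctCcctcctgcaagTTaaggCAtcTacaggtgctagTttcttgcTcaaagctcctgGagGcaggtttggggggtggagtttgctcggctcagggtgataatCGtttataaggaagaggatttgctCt
The kallikrein pair was identical at 84.2% of 278 aligned columns, with 39 substitutions and 5 gap columns, and the secretoglobin pair at 83.5% of 248, with 20 substitutions and 21 gap columns. The Klk1 promoter was identical to that of Klk1b5 at 84.6% of 208 aligned columns and to that of Klk1b27 at 79.5%.

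Among the secretoglobins, small secreted proteins that include the androgen-binding proteins of mouse saliva, Scgb2b27 had log2 levels of 5.29 at 0 Gy, 4.30 at 0.85 Gy, 4.78 at 8.5 Gy and 12.08 at 17 Gy, at least 123-fold higher at 17 than at 0.85 Gy. Scgb1b27 went from 4.30 at 0.85 Gy to 11.95 at 17 Gy, at least 112-fold, and Scgb2b26 from 4.78 to 11.67, at least 92.7-fold. All 3 were bright on the 17 Gy array and at or near background on the other arrays. Prol1, a proline-rich protein of lacrimal and salivary glands, was at 4.48, 4.48, 4.45 and 10.73 with rising dose, at least 48.1-fold higher, and its second probe differed by 5.98. Pip, the prolactin-induced protein of saliva and tears, was at least 35.6-fold higher (4.25 against 10.29), the mucin-like Mucl2 at least 30.4-fold (4.42 against 10.06), Smgc, a submandibular gland protein, at least 8.02-fold (4.59 against 8.14) and the major urinary protein gene Mup5 at least 10.3-fold (4.42 against 8.50). Klk1, the kallikrein that releases kinins, was at 4.45, 4.25, 4.24 and 9.06, at least 15.1-fold higher. Klk1b5 followed with at least 6.25-fold and Klk1b27 with at least 4.94-fold, whereas Klk1b22 (4.82 against 5.01) and Klk8 (5.52 against 5.64) hardly differed. Wfdc12, a small secreted protein with a protease-inhibitor domain, was detected on both arrays and stood at 6.45, 5.27, 5.14 and 8.60, a 10.1-fold difference. The list of major urinary proteins and detoxification enzymes shares Mup5 and Mup2 with the salivary list. It had 2 of 17 higher (11.8%, beside 3.44% of all genes), Mup5 and Mup6, the latter 9.31 against 10.65. Its median was 0.25.

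**Figure D2:**
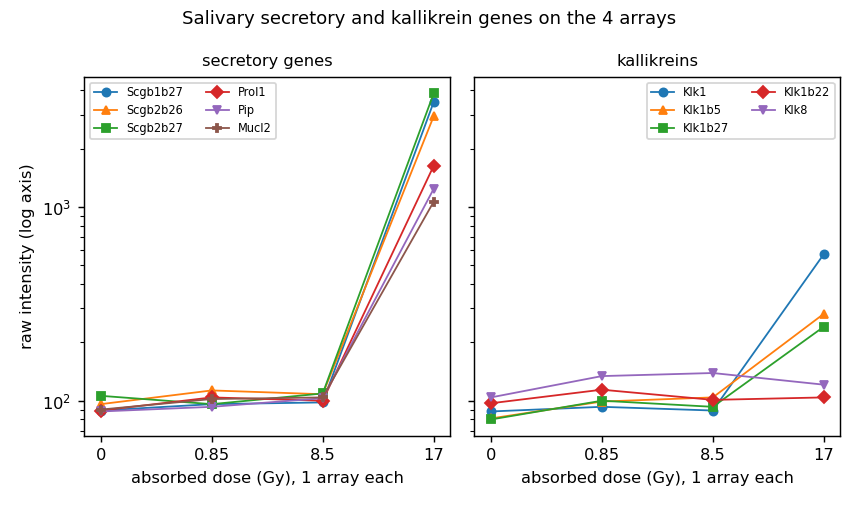
Raw probe intensity (log axis) on the arrays at 0, 0.85, 8.5 and 17 Gy, 1 array each, for 6 secretory genes (left) and 5 kallikreins (right), each line being 1 gene. The secretory genes and Klk1, Klk1b5 and Klk1b27 were near background on 3 arrays and bright at 17 Gy, whereas Klk1b22 and Klk8 were not.

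Genes known to respond to fasting and to insulin held several of the next largest differences. Of 23 measured genes, 9 were at least 2-fold higher at 17 Gy (39.1%, beside 3.44% of all genes) and 2 were lower (8.70%, beside 1.35%, and 1 with bounds). The median was 0.10, with 14 genes above 0 and 9 below. Mfsd2a, a lysophospholipid transporter induced by fasting in liver and brown fat, stood at 10.06 at 0 Gy, 4.35 at 0.85 Gy, 6.94 at 8.5 Gy and 9.54 at 17 Gy. It was at least 21.2-fold higher at 17 Gy and not well above background at 0.85 Gy. Irs2, the insulin receptor substrate that insulin represses in liver, was at 10.06, 6.17, 9.20 and 9.88, 13.1-fold higher. Noct, the rhythmic nocturnin, was at 10.04, 6.42, 8.23 and 9.91, 11.2-fold higher, and its second probe differed by 2.96. Ppargc1a, which coactivates genes of mitochondria and heat production, was at 9.08, 6.03, 8.01 and 8.68, 6.27-fold higher. In these 4 genes the 0.85 Gy array was the lowest of the 4 and the 0 and 17 Gy arrays lay close to each other. The other genes 2-fold higher that were named were G0s2, an inhibitor of the triglyceride lipase ATGL (9.69 at 0.85 Gy against 11.71 at 17 Gy, 4.05-fold), Nnmt, which methylates nicotinamide (8.54 against 10.06, 2.86-fold), Sik1, a cAMP-induced kinase (4.74 against 6.14, at least 2.01-fold), and Pdk4, the kinase that closes pyruvate dehydrogenase (11.01 against 12.21, 2.31-fold). The 2 lower genes were Trib3, a pseudokinase that binds Akt (5.75 against 4.59, at least 1.66-fold), and Acadl, a long-chain acyl-CoA dehydrogenase (11.14 against 10.14, 2.004-fold by 1 probe, with differences of -0.34 and -0.62 by the other 2).

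Targets of cAMP and of glucocorticoids overlap with the fasting list. On the cAMP and beta-adrenergic list, which shares Ppargc1a and Sik1 with the fasting list, 5 of 9 measured genes were 2-fold higher (55.6%, beside 3.44% of all genes) and none lower. The median was 1.17, and 1.005 with bounds. Of the 16 genes of that list with a probe, 7 were detected on neither array, 2 at 17 Gy only and 1 at 0.85 Gy only. Gadd45g, a stress-induced gene, was at 12.53, 10.65, 12.38 and 12.65 with rising dose, a 4.02-fold difference between the 2 arrays. Nr4a2, an orphan nuclear receptor, was at 6.77, 4.94, 7.90 and 7.14, at least 4.01-fold higher, and Pde4d, which hydrolyses cAMP, at 8.47, 7.13, 7.19 and 8.30, 2.25-fold higher. Ucp1, itself a cAMP target in brown fat, differed by only 0.25. On the glucocorticoid list, which shares Pdk4 with the fasting list, 5 of 17 were 2-fold higher (29.4%) and 1 lower (5.88%, and none with bounds), with a median of 0.77. Errfi1, a feedback inhibitor of the EGF receptor, was at 10.84, 8.50, 9.70 and 10.75, 4.78-fold higher, Sgk1, a kinase that controls sodium transport, at 11.95, 10.20, 11.60 and 11.64, 2.72-fold, and Pik3r1, the regulatory subunit of PI3 kinase, at 10.94, 9.65, 10.25 and 11.18, 2.87-fold. Tsc22d3, the glucocorticoid-induced leucine zipper, was 2.14-fold higher (8.50 against 9.60), with 0.27 by its second probe. Fkbp5, a cochaperone of the glucocorticoid receptor, was near background (4.78 against 5.69, at least 1.47-fold). The 1 lower gene was Lcn2, a siderophore-binding protein (5.83 against 4.64, at least 1.76-fold).

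**Figure D3:**
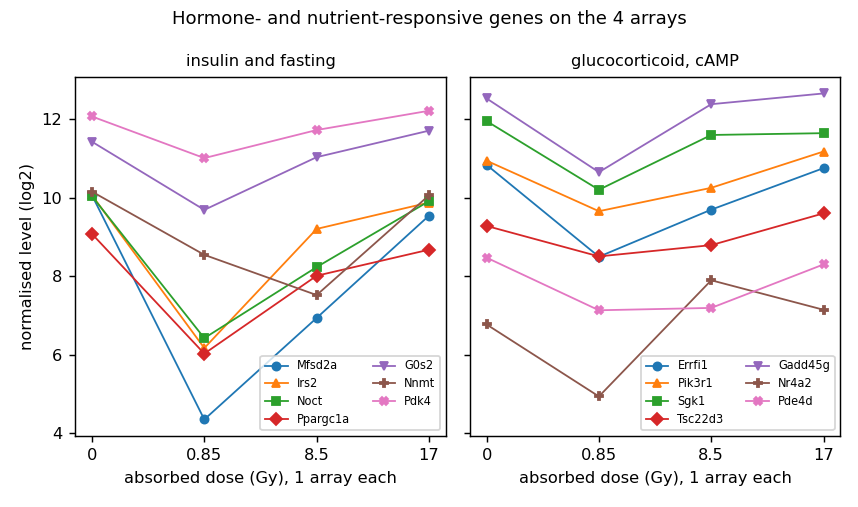
Normalised log2 level on the arrays at 0, 0.85, 8.5 and 17 Gy, 1 array each, for 7 fasting- and insulin-responsive genes (left) and 7 glucocorticoid- and cAMP-responsive genes (right). The 0.85 Gy array is the lowest for every gene drawn except Nnmt, whose lowest level is at 8.5 Gy, and the 0 and 17 Gy levels are close.

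The letters that the cAMP-responsive factor CREB binds were looked for in promoters on both strands. A gene with several promoters counted if any of them held the letters. For such a gene, a promoter holding the full element was the one taken for display, where there was one. The full element TGACGTCA was present in 6 of 217 higher genes with a promoter (2.76%) and 2 of 84 lower genes (2.38%), against 3.49% of the 6414 compared genes with a promoter and 2.03% of all 27025. The shorter TGACG, which the full element contains, was in 30.4% of the higher, 27.4% of the lower, 35.9% of the compared and 23% of all genes with a promoter. Neither form was more frequent among the higher genes than among all genes compared. FoxO's GTAAACA was in 5.99% of the higher and 9.52% of the lower genes (3.27% of those compared, 4.05% of all), and the E-box CACGTG in 10.6% and 7.14% (12.1% and 8.09%). Promoters of 3 genes are shown for where the letters lie. Errfi1 (chr4:150854820-150855119, plus strand) and Slc25a25 (chr2:32424017-32424316, minus strand) were picked after their values were seen because they hold the full element, and Nr4a2 (chr2:57123954-57124253, minus strand) because it holds 4 copies of the shorter one; capitals mark TGACGTCA in the first 2 and TGACG or its reverse CGTCA in the third.
Errfi1: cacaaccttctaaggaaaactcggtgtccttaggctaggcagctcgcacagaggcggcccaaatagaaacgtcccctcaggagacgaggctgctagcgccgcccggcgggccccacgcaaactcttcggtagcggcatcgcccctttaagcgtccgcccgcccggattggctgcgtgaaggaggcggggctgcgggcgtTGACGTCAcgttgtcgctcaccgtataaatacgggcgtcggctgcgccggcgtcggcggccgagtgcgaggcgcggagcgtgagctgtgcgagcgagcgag
Slc25a25: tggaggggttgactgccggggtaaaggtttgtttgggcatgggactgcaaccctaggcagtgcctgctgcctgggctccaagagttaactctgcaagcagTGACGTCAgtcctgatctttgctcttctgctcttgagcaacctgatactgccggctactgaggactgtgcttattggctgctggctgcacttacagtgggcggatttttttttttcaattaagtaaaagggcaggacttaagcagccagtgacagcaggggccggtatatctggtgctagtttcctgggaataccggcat
Nr4a2: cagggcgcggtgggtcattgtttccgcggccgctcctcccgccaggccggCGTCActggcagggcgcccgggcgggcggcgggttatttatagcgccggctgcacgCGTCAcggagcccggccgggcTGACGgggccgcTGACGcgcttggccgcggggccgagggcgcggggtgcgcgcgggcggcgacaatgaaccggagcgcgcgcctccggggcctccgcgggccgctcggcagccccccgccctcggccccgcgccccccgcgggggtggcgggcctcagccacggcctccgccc
Slc25a25, a mitochondrial ATP-Mg carrier, was at 7.34 at 0 Gy, 5.30 at 0.85 Gy, 6.17 at 8.5 Gy and 7.61 at 17 Gy, 4.93-fold higher at 17 than at 0.85 Gy. A match is a description of the sequence and shows no binding.

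Immediate early genes, the transcription factors induced within minutes of a stimulus, were divided. Of 19 measured, 6 were at least 2-fold higher at 17 Gy (31.6%, beside 3.44% of all genes) and 3 lower (15.8%, beside 1.35%). The median was 0.77, and 0.17 over all 28 with a probe. Among the 6 was Nr4a2, which is also on the cAMP list. Klf2, a factor of quiescent endothelium and T cells, stood at 9.87, 7.33, 8.53 and 10.03, 6.50-fold higher at 17 than at 0.85 Gy. Klf6 was at 10.51, 8.12, 10.14 and 10.19, 4.19-fold higher (a difference of 0.62 by its second probe), and Klf4 at 6.78, 5.57, 5.93 and 7.21, 3.11-fold higher. Atf3, a stress-induced factor, was at least 2.82-fold higher (4.89 against 6.63) and Egr2 2.42-fold (6.59 against 7.86). The 0.85 Gy array was the lowest of the 4 for each of these 5 genes. Fos, a subunit of AP-1, had the opposite pattern, with 7.005, 9.71, 10.45 and 7.596, 4.34-fold lower at 17 Gy. Egr1 was at 11.37, 13.15, 13.36 and 11.93, 2.34-fold lower, and Junb, named after its value was seen, was lower by -1.24 on the log2 scale. These 3 were high at both 0.85 and 8.5 Gy and low at 0 and 17 Gy.

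**Figure D4:**
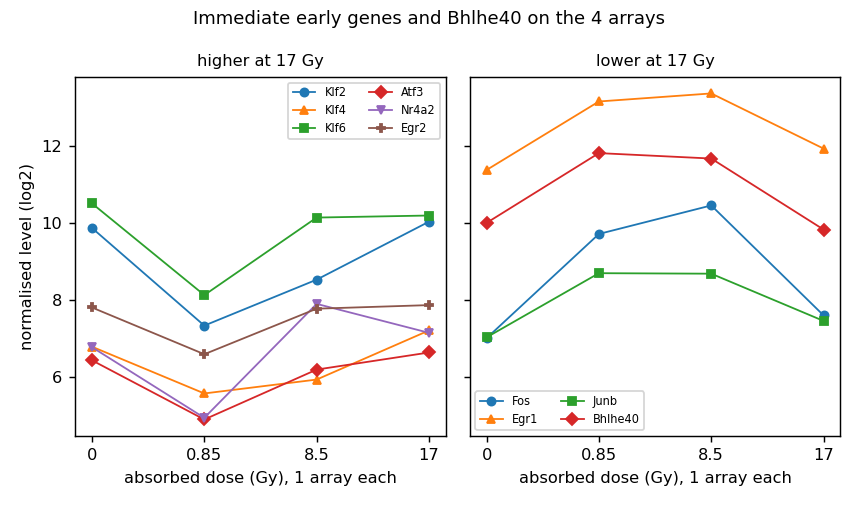
Normalised log2 level on the arrays at 0, 0.85, 8.5 and 17 Gy, 1 array each, for 6 immediate early genes that were higher at 17 than at 0.85 Gy (left) and for Fos, Egr1, Junb and the clock repressor Bhlhe40, which were lower (right). The left-hand genes dip at 0.85 Gy, and the right-hand genes are high at 0.85 and 8.5 Gy and low at 0 and 17 Gy.

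Clock genes were likewise mixed. Of 18 measured, 3 were higher (16.7%, beside 3.44% of all genes), 2 lower (11.1%, beside 1.35%), and the median was 0.05. Bhlhe40, a repressor of the clock and a target of many stimuli, was at 9.999, 11.81, 11.67 and 9.83, 3.96-fold lower at 17 Gy, and Ciart, another clock repressor, at 6.65, 8.11, 7.43 and 6.96, 2.22-fold lower. Besides Noct, Per3 (5.40 against 6.87, 2.78-fold) and Nfil3 (6.97 against 8.12, 2.21-fold) were higher. The core and output genes differed less: Per1, a period gene, by 0.77, Per2 by 0.53 and Dbp, a clock output, by -0.16, and Arntl, the activator of the loop, was not well above background at 17 Gy (5.40 against 4.42).

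Some genes of the extracellular matrix and its fibroblasts were 2-fold higher at 17 Gy and no gene of those lists was 2-fold lower. Of 41 non-collagen matrix genes measured, 31 lay above 0 and 10 were at least 2-fold higher (24.4%, beside 3.44% of all genes; 9 with bounds), with a median of 0.55. Of 14 collagens, 12 lay above 0 and 1 was 2-fold higher (7.14%, median 0.50), and of 14 fibroblast and adipose progenitor genes 3 were (21.4%, median 0.61). Spon2, a secreted matrix protein, was at 10.15 at 0 Gy, 7.45 at 0.85 Gy, 7.64 at 8.5 Gy and 9.41 at 17 Gy, 3.91-fold higher. Lum, the collagen-binding proteoglycan lumican, was at 9.92, 7.54, 7.73 and 9.33, 3.48-fold higher. Col3a1, the fibrillar collagen of soft tissue, was at 9.06, 6.91, 7.50 and 8.31, 2.65-fold higher. Fgf10, a growth factor of mesenchyme and preadipocytes, was at 10.001, 7.51, 7.34 and 9.27, 3.39-fold higher, with 1.72 by its second probe, and Dpt, dermatopontin, was 2.96-fold higher (7.31 against 8.87). In these 5 genes both the 0.85 and the 8.5 Gy array were below both the 0 and the 17 Gy array. Nid1, a basement membrane linker, was 2.43-fold higher (6.72 against 8.003), Lox, which cross-links collagen, 2.36-fold (5.30 against 6.54), P4ha2, a collagen prolyl hydroxylase, at least 1.55-fold (4.53 against 5.77) and Mfap5, a microfibril protein, 2.29-fold (6.50 against 7.69). Ccn5, a matricellular protein, went the other way, at 4.48, 6.84, 4.58 and 5.18, 3.15-fold lower.

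Macrophage and MHC class II genes 2-fold apart were mostly higher at 17 Gy, and neutrophil genes 2-fold apart were lower. Of 21 macrophage genes, 17 lay above 0, 4 were 2-fold higher (19%, beside 3.44% of all genes) and 1, Gpnmb, was lower (4.76%), with a median of 0.32. Cd163, the haemoglobin scavenger receptor, was at 7.80, 6.91, 6.92 and 8.37, 2.76-fold higher, and Mrc1, the mannose receptor, at 7.61, 7.18, 6.84 and 8.55, 2.58-fold. Aif1, an actin-binding protein of macrophages, was 2.13-fold higher (5.67 against 6.76), with 0.68 by its second probe. Lgals3, galectin-3, was 2.01-fold higher (9.45 against 10.46). Of 9 measured genes of MHC class II presentation, 3 were 2-fold higher (33.3%) and none lower (median 0.79). They were H2-Ea (10.96, 10.11, 10.64 and 11.68, 2.99-fold), H2-Ab1 (10.18 against 11.27, 2.12-fold, with 0.84 and 0.16 by its other probes) and the peptide-exchange factor H2-DMb1 (6.92 against 8.25, 2.52-fold). For H2-Ea, Cd163 and Mrc1 the 17 Gy array was the highest of the 4.

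Of 22 chemokines and cytokines, 5 were 2-fold higher (22.7%, beside 3.44% of all genes) and 2 lower (9.09%), or 3 and none with bounds. The median was 0.30, and 0.09 over all 38 with a probe. Ccl9, a monocyte attractant, was at 8.33, 6.71, 6.78 and 9.31, 6.07-fold higher, and Ccl8, which draws in monocytes too, stood at 7.23, 6.66, 5.75 and 8.63, 3.91-fold higher. The cytokine Il1b was at least 1.91-fold higher (5.01 against 6.08). Cxcl10, an interferon-induced chemokine, was at least 1.83-fold lower (5.88 against 4.34). Complement had 10 of 11 genes above 0, none 2-fold apart (median 0.60). T and NK cell genes had 1 of 8 2-fold higher (12.5%), Prf1, perforin (8.21 against 9.22). Their median was 0.69, and 0.16 over all 21 with a probe. Of the 21, 13 were detected on neither array and 3 at 17 Gy only. Mast cell genes had 1 of 6 2-fold higher (16.7%), Cpa3, the mast cell carboxypeptidase (5.80 against 7.13). Their median was 0.78, and 0.10 over all 11 with a probe, of which 5 were detected on neither array. The immune genes that were higher at 17 Gy were so on the same array as the salivary gland list. The measured members of that list had a summed raw intensity of 4208 at 0.85 Gy and 19243 at 17 Gy, of which Mup2 gave 2771 and 3624. The part of salivary tissue in these results was not tested.

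Neutrophil genes all lay below 0: 7 of 7 measured, 4 of them 2-fold lower by measured level (57.1%, beside 1.35% of all genes) and 2, S100a9 and Ltf, with bounds. The median was -1.10, and -0.64 with bounds, with 3 of the 7 detected at 0.85 Gy only. S100a9, a subunit of calprotectin, was at 5.85, 7.73, 7.06 and 6.63, 2.14-fold lower at 17 Gy, and its partner S100a8 at 6.70, 8.44, 8.15 and 7.92, 1.43-fold lower. Ltf, lactoferrin, was at least 2.34-fold lower (6.24 against 4.55) and Retnlg at least 1.55-fold (5.65 against 4.48). Another 10 genes of the list were detected on neither array. Gpnmb, a glycoprotein of lipid-laden macrophages and osteoclasts, gave the largest difference in the downward direction among genes detected on both arrays, with 5.85, 9.38, 4.82 and 5.88, 11.3-fold lower, although its second probe differed by only -0.86. Mmp12, the macrophage elastase, was at 4.33, 6.04, 4.30 and 4.34, at least 2.03-fold lower. Gdpd3, a lysophospholipase D, was at 4.85, 8.83, 4.61 and 4.52, at least 14.1-fold lower. These last 3 genes were high on the 0.85 Gy array alone.

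Mitochondrial genes had small differences, few of them 2-fold. Of 68 respiratory chain and ATP synthase subunits, 12 lay above 0, 3 were 2-fold lower (4.41%, beside 1.35% of all genes; 2 with bounds) and none higher (median -0.23, and -0.37 with scaling to the 75th percentile). Of 55 mitochondrial ribosomal proteins 13 lay above 0 and none was 2-fold apart (median -0.21). Ndufb9, a complex I subunit, was at 10.51, 11.15, 10.88 and 9.98, 2.25-fold lower, and Cox7a2, of cytochrome oxidase, at 9.55, 9.57, 9.78 and 8.56, 2.01-fold lower. Fatty acid oxidation and lipolysis genes were centred on 0 (median 0.02, 2 of 22 lower, 9.09%), and the 2 were Acadl and Acaa2, the mitochondrial thiolase. Acaa2 was at 11.76, 13.01, 13.00 and 11.84, 2.26-fold lower, with differences of -1.09, -0.90 and -0.31 by its other probes. The 32 antioxidant and Nrf2 genes had a median of -0.21, with 1 higher (3.12%, beside 3.44% of all genes). It was Bach1, a repressor of Nrf2 targets, at 7.47, 4.89, 7.43 and 7.25, at least 4.33-fold higher. The lists of cytosolic ribosomal proteins (30 genes, median -0.04) and proteasome subunits (28 genes, median -0.04) had no gene 2-fold apart. Rps3a1, a ribosomal protein gene that is not on that list, was at 7.33, 8.52, 8.21 and 6.93, 3.01-fold lower.

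Targets of p53 differed in both directions. Of 24, 1 was 2-fold higher (4.17%, beside 3.44% of all genes) and 3 lower (12.5%, beside 1.35%), with a median of 0.09. Cdkn1a, the p21 cell cycle inhibitor, was at 9.49 at 0 Gy, 8.48 at 0.85 Gy, 8.21 at 8.5 Gy and 9.13 at 17 Gy, a difference of 0.65 (0.72 and 0.57 by its other probes). Mdm2, which degrades p53, was at 9.59, 9.24, 9.35 and 9.45, and Ccng1, cyclin G1, at 10.33, 9.72, 10.84 and 10.23. For Cdkn1a and Mdm2 the 0 Gy array was the highest of the 4. Plk3, a stress kinase, was 3.13-fold higher (7.56 against 9.20). The 3 lower targets were pro-apoptotic or stress genes: Bbc3, which encodes Puma (6.99, 8.10, 7.49 and 6.91, 2.29-fold), Apaf1, of the apoptosome (7.52 against 6.29, 2.36-fold, with -0.52 by its second probe), and Gadd45a (7.62 against 6.56, 2.08-fold, with -0.96 by its second probe). Each was highest at 0.85 Gy. Of 26 DNA repair genes none was 2-fold apart (median 0.03). Apoptosis genes had 1 of 17 higher (5.88%), the inflammatory caspase Casp1 (6.86 against 7.98). Another was lower (5.88%), Bok, a Bcl2-family killer (6.78 against 5.34), and the median was -0.05. Of 33 cell cycle genes with a probe, 19 were detected on neither array and 1 of the 14 measured was higher (7.14%). It was Ccnd2, cyclin D2, at 9.27, 6.63, 7.92 and 8.83, 4.60-fold.

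Stress and RNA-processing genes added a few large single differences. Of 21 cytosolic heat shock genes 2 were higher (9.52%, beside 3.44% of all genes, median 0.10). Hspa1a, the inducible Hsp70, was at 6.53, 4.63, 4.61 and 6.75, at least 3.05-fold higher, and Chordc1, an Hsp90 cochaperone, was 2.41-fold higher (8.47 against 9.74). Ddit3, the stress factor CHOP, was at 6.68, 8.15, 7.23 and 6.96, 2.29-fold lower. Its list of 24 unfolded protein and integrated stress genes had 1 higher (4.17%), 2 lower (8.33%, beside 1.35% of all genes) and a median of -0.08. Splicing factors and RNA helicases had 3 of 25 higher (12.0%) and 2 lower (8.0%), with a median of 0.34. Ddx6, the P-body helicase, was at 8.89, 5.46, 8.001 and 8.47, 8.09-fold higher, but its other probes differed by 0.95 and 0.36. Luc7l3 was 2.71-fold higher (8.90 against 10.34), Hnrnpa1 2.40-fold lower (7.60 against 6.33) and Hnrnpa2b1 2.31-fold lower by 1 probe and 0.57 higher on the log2 scale by the other. Probes of 1 gene that differ in this way can read different transcripts, and which did so here is not given. Kyat3, an aminotransferase of kynurenine, was 3.17-fold lower (9.21 against 7.55), with 0.42 by its second probe. Cish, a feedback inhibitor of STAT5 signalling, was at 7.17, 8.94, 8.09 and 7.35, 3.01-fold lower. Pik3ip1, an inhibitor of PI3 kinase, was at least 2.90-fold lower (6.55 against 4.97), and Rgs16, which ends G-protein signals, 2.98-fold (6.59 against 5.01). Cfap20dc was at 4.23, 6.99, 4.48 and 4.20, at least 3.92-fold lower. Zfp763 was at least 2.65-fold lower (6.42 against 4.69) by the brighter of its 2 detected probes.

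Fat, thyroid-hormone and vascular lists had at most 2 genes 2-fold apart each. Of 15 brown fat genes 2 were higher (13.3%, beside 3.44% of all genes), with a median of 0.25. They were Ppargc1a, also on the fasting list, and Fabp3, a fatty acid carrier (11.41 against 12.68, 2.40-fold). The 16 adipocyte genes had none 2-fold apart (median 0.18), nor had 20 genes of lipid synthesis (median -0.07), 14 of cholesterol synthesis (median -0.10), 15 of hypoxia and angiogenesis (median -0.10) or 10 metallothionein and metal-handling genes (median 0.00). Thyroid hormone targets had 1 of 9 higher (11.1%, median 0.24). It was the muscle calcium pump Atp2a1 (5.57 against 6.68), which is also on the skeletal muscle list. Interferon genes had none of 27 2-fold apart (median 0.15). MHC class I genes had 1 of 19 higher (5.26%), the chaperone Pdia3 (8.46 against 9.56), with a median of 0.04. Their 1 lower gene (5.26%, beside 1.35% of all genes) was H2-D1 (9.77 against 8.69). Of 21 endothelial genes 1 was lower (4.76%, median -0.08), Sox18, a vascular transcription factor at 8.92, 9.92, 9.20 and 8.70. Of 13 smooth muscle genes none was 2-fold apart (median -0.05). These counts use 1 probe a gene. Of list genes under 2-fold by that probe, 2 had another detected probe 2-fold higher and 19 one 2-fold lower, such as Acss2, an acetyl-CoA synthetase (-1.54, against -0.13), Sqle, squalene epoxidase (-1.18, against 0.00), Irf1, an interferon regulatory factor (-1.35, against -0.39), and Parp1, a DNA damage sensor (-1.01, against 0.02), all named after their values were seen.

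Of 15 measured skeletal muscle genes 5 were 2-fold higher by measured level (33.3%, beside 3.44% of all genes) and 2 with bounds. At 17 Gy only, 5 had been detected, and 20 of 35 genes with a probe were detected on neither array. The median was 0.54, 0.23 with bounds and 0.06 over genes detected on both arrays, so it rests on genes near background. Acta1, skeletal actin, was at 4.33, 4.42, 14.37 and 6.70, at least 2.94-fold higher at 17 than at 0.85 Gy, and Pvalb, the calcium buffer parvalbumin, at 4.31, 4.33, 14.59 and 5.88, at least 1.67-fold. Both were far brighter on the 8.5 Gy array than on either array compared here. Erythrocyte genes had 1 of 7 lower (14.3%, beside 1.35% of all genes) and a median of -0.50. It was the erythroid factor Klf1 (5.34 against 4.30, at least 1.25-fold, so none with bounds). Senescence-associated genes had a median of -0.15 (11 measured, 1 higher and 1 lower, 9.09% each). Schwann cell and nerve genes also had -0.15 (6 measured, 1 higher and 1 lower, 16.7% each). The lower one of these 6 was the brain proteoglycan Ncan (6.87 against 5.29). Medians were 0.01 for B and plasma cell genes (3 measured) and 0.33 for thymus cortex genes (2 measured). A single gene was measured of the C cell (Syp, -0.25), epithelial (Elf3, 0.21) and cartilage and trachea (Foxj1, 0.28) lists, and none of the parathyroid list.

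**Figure D5:**
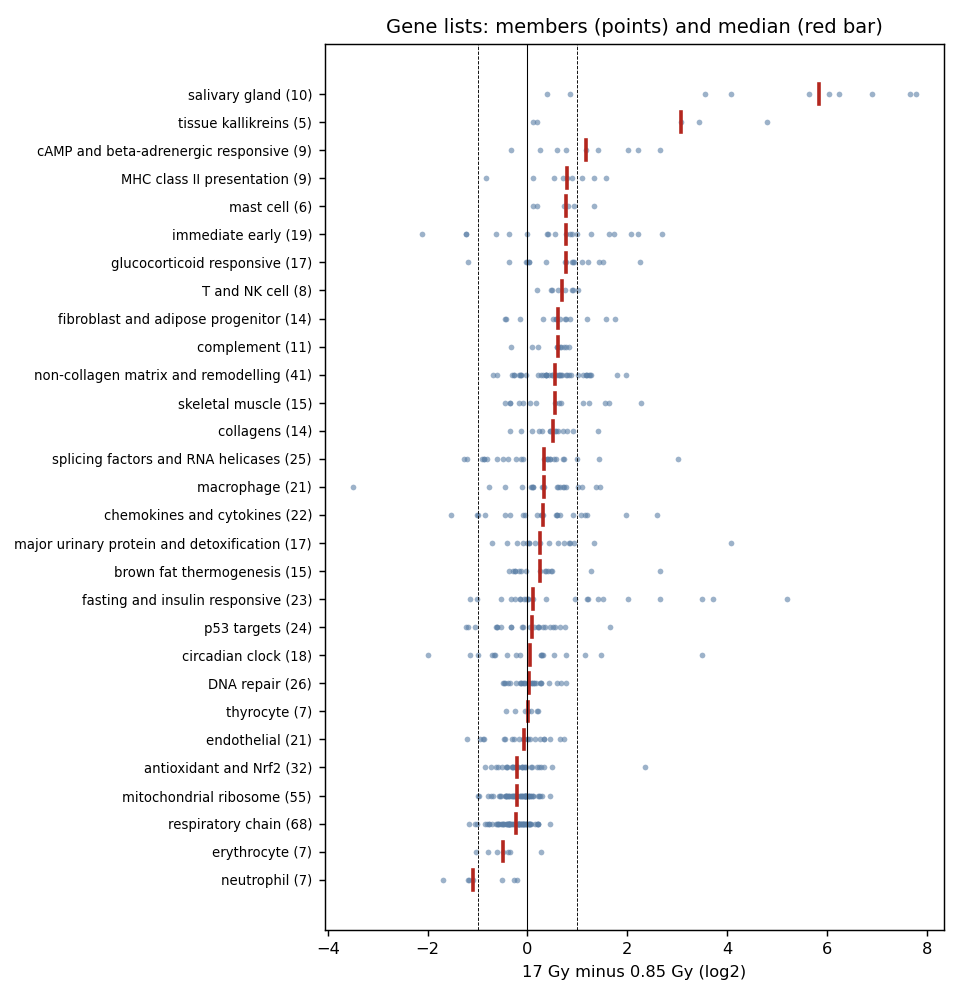
Log2 difference, 17 Gy minus 0.85 Gy, of each measured member (points) and the median (red bar) for 29 gene lists, with the number of measured members in brackets and dashed lines at 2-fold. The salivary and kallikrein medians lie at 5.84 and 3.07 and the neutrophil median at -1.10, but 8 of 10, 4 of 5 and 3 of 7 of their members were detected on 1 array only and undetected members are not drawn; the respiratory chain and mitochondrial ribosome medians lie narrowly below 0.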

How the data were processed

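Total RNA from 4 samples labelled Balb/c mouse thyroid, 1 per absorbed dose, was measured on Illumina mouse BeadChip arrays. Of the deposited files, one table gave raw linear-scale bead intensity for 26512 probes with, per the file headers, a detection p-value for each. Another deposited table gave normalized intensity. Its columns hold the same values once sorted, so the authors are taken to have quantile-normalized them. The value table gave the same values as this normalized table for the 25697 probes it holds, and the software is not given in the sources used here. Detected named probes numbered 9411, 9422, 9864 and 9913 at 0, 0.85, 8.5 and 17 Gy, and the number of arrays limits the precision.

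The non-normalized intensities of the 4 arrays were processed with limma's neqc (limma version 3.58.1, R version 4.3.3). Its steps were background estimated from the detection p-values, normexp, offset of 16, quantile normalization and log2. It was tested on simulated data in which only bright probes were changed and scored, so that test does not cover dim genes. Of the value table's probes, 23978 had 1 gene symbol in the platform's annotation, 0 had several and 1719 had none. Each gene takes the value of 1 detected probe, the one whose raw intensity averaged over the 4 arrays was greatest. For a gene detected on a single array of the pair, "at least" marks a lower limit: the dim level used was that array's own value or its lowest detected probe, whichever was greater. No test was run, and "2-fold" is a size, not a call of significance. Python 3.11.15, numpy 2.4.6, pandas 2.3.3, matplotlib 3.10.9 and biopython 1.88 (promoter alignments) were used.

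The text names the top 15 higher and top 15 lower genes by size (2-fold apart, same direction in the authors' values, descriptive symbol). It also names up to 6 members of any list in which 2 or more were 2-fold apart one way, up to 2 of other lists, and a fixed set. Any other gene is marked. The 53 gene lists had 1244 entries matched by symbol, 11 through a synonym and 151 without a probe. "With bounds" means a median with each gene detected on 1 array at its bound. Members and lists were chosen with earlier results of these data known.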

Additional observations from a re-analysis of the deposited data

How the results depend on the processing

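No paired analysis was possible because each dose had 1 array. Against 271 genes higher and 106 lower, the authors' normalized values gave 93 and 18 (83.8% of them higher), no background correction 82 and 18 (82.0%), an offset of 50 gave 127 and 30 (80.9%), and scaling to the 75th percentile 389 and 67 (85.3%), with a median of 0.06 over all genes. A 1.5-fold threshold gave 933 and 661 (58.5%), a 3-fold threshold 63 and 12 (84.0%), and detection on both arrays 181 and 70. Counts from neqc on the 2 arrays alone (273 and 112), a detection p under 0.05, no detection filter, the mean of a gene's probes (242 and 95) and bounds (214 and 79) stayed within 1.5 times. The smaller counts without background correction, with the larger offset and with the stricter threshold or filter follow from how these settings are made; the cause of the others was not tested.

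Under the settings that change values or filters, no named 2-fold gene with a value changed direction (76 of 111 had one with detection on both arrays, and all 111 under the others). All these settings reuse the same arrays, so a kept direction is no replicate check, for genes or for lists. The top 15 genes in each direction were also picked for having the same direction in the authors' values. Of 111 named genes 2-fold apart, 60 were so in the authors' values, 58 without background correction, 73 with the offset of 50 and 99 at their bounds. The 19 lists with a median of at least 0.25 in size kept its direction under these settings (17 had a value with detection on both arrays, of which 15 kept that size). With no detection filter 9 kept that size, with no background correction 12, and on the authors' scale 17. Without that filter undetected members enter, and the medians were 0.13 (salivary), 0.09 (kallikrein), 0.17 (immediate early), 0.09 (chemokine), 0.12 (splicing), 0.15 (skeletal muscle), -0.20 (neutrophil), 0.16 (T and NK cell), 0.10 (mast cell) and 0.19 (urinary protein). Low signal over background limits the folds of dim genes, which the bounds give.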
